A study of Mus musculus with 50 samples.

Results

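The genes described here are 8 genes of antigen presentation by major histocompatibility complex (MHC) class I and of complement: B2m, H2-K1, H2-D1, Tap1, Tap2, Tapbp, C4b and C3. They are listed by name, out of 55487 genes counted in the files, of which 55141 carry a symbol. All 8 were among the 16330 protein-coding genes that passed a filter on low counts (the equivalent of 10 counts in at least 5 libraries, and a summed count of at least 15).

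The libraries come from frontal cortex of wild-type (WT) mice and of mice with 1 loss-of-function allele of Setd1a (Setd1a+/-, written Het), strain C57BL/6NTac by the labels. There are 5 ages, embryonic days 14 and 18 (E14, E18) and postnatal days 7, 35 and 70 (P7, P35, P70), with 5 libraries for each age and genotype, 50 in all. The methods of the study describe a mixed background that includes C57BL/6 J, and male animals. Total counts per library run from 35507165 to 43907318, with a median of 38626998.5.

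MHC class I molecules are a heavy chain, such as H2-K1 or H2-D1, held together with the light chain beta-2 microglobulin (B2m), and they show peptides from inside the cell on its surface. The transporter of Tap1 and Tap2 brings those peptides into the endoplasmic reticulum, where tapasin (Tapbp) helps to load them. C4 and C3 are cleaved in the complement cascade and attach to surfaces that phagocytes then engulf; in the developing brain both systems are known for a part in the removal of synapses, and interferons are known to raise class I genes in many cells.

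Setd1a, the targeted gene, was counted in every library. Levels are CPM, a gene's count as a share of the protein-coding counts in its library. They are scaled by the trimmed mean of M values (TMM), a library scaling that sets aside genes that differ most. They are given as mean and standard deviation (SD) of 5 libraries. Setd1a was 127 CPM (SD 7.54) in WT and 137 (SD 8.84) in Het at E14, and 93.8 (SD 5.33) and 107 (SD 8.13) at E18. It was 72.2 (SD 2.44) and 80.8 (SD 3.26) at P7, 85.1 (SD 3.96) and 89.9 (SD 1.77) at P35, and 86.3 (SD 4.08) and 84.8 (SD 8.01) at P70. Counts per gene do not resolve a deleted exon, so these levels do not check the genotype labels. Neuron markers were present in every library: the 8 listed genes, led by Tubb3, Slc17a7 or Snap25, summed to between 733 and 1635 RPKM, which is CPM per kilobase of exon and can be compared between genes.

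Several libraries stand apart in markers of cells other than neurons. The summed level of 10 endothelial markers, all 10 tested and Cldn5 the most abundant, was 45.1, 45.4, 50.3, 41.7 and 61.4 RPKM in E14 WT replicates 1 to 5 and 43.4, 254, 43.2, 85.1 and 42.2 RPKM in E14 Het. At E18 the same sum was 110, 68.0, 174, 134 and 68.3 RPKM in WT and 61.9, 54.8, 66.5, 71.3 and 62.8 RPKM in Het, and in the 30 postnatal libraries it lay between 79.9 and 128 RPKM. E14 Het replicate 2 is thus far above the other E14 libraries, and E18 WT replicates 3, 4 and 1 are above every E18 Het library; no endothelial marker was at 0 throughout a group.

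Pericyte and meningeal markers were high in some of the same libraries. The 6 pericyte markers, led by Rgs5 or Vtn, summed to 24.1, 115, 32.6, 44.9 and 32.7 RPKM in E14 Het, against 25.6, 28.2, 31.7, 27.3 and 34.3 RPKM in E14 WT. At E18 they summed to 62.3, 43.5, 84.1, 79.5 and 36.5 RPKM in WT and 51.6, 32.9, 49.5, 50.7 and 43.9 RPKM in Het. The 8 markers of meningeal fibroblasts, led by Islr or Igf2, summed to 55.2, 332, 89.8, 148 and 109 RPKM in E14 Het and 47.5, 50.3, 86.1, 69.4 and 111 RPKM in E14 WT. Replicate 2 of E14 Het again had the highest value in its group for both lists, and no marker of either list was at 0 throughout a group.

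Markers of choroid plexus, the secretory tissue of the ventricles, were high in some of these libraries and in others. Its 8 markers, led by Ttr or, in E18 Het, Aqp1, summed to 0.584, 16.7, 313, 209 and 330 RPKM in E14 WT, and to 48.7, 2.81, 148, 362 and 384 RPKM in E14 Het. At E18 the sum was 6.42, 4.83, 197, 162.6 and 7.52 RPKM in WT and 5.78, 1.79, 4.65, 4.74 and 4.96 RPKM in Het, and at P7 WT it was 4.40, 517, 3.19, 3.14 and 3.43 RPKM. P7 WT replicate 2 also had 279 RPKM of the 8 oligodendrocyte markers against 58.6, 49.8, 58.1 and 57.0 RPKM in replicates 1, 3, 4 and 5. Its neuron markers summed to 1025 RPKM, against 1491, 1635, 1519 and 1556 RPKM in these, and its lymphocyte markers to 4.36 RPKM, against 18.5, 21.5, 19.8 and 18.8 RPKM. The lymphocyte sum is mostly that of 1 gene, Trbc2, with a mean of 16.1 of 16.6 RPKM in P7 WT, so it does not measure lymphocytes as a whole. Xist RNA, which female cells make from their inactive X chromosome, was counted 60159 times (1422 CPM) in E14 WT replicate 5 and 55644 times (1426 CPM) in E18 WT replicate 2, and at most 27 times in the other 48 libraries.

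**Figure D1:**
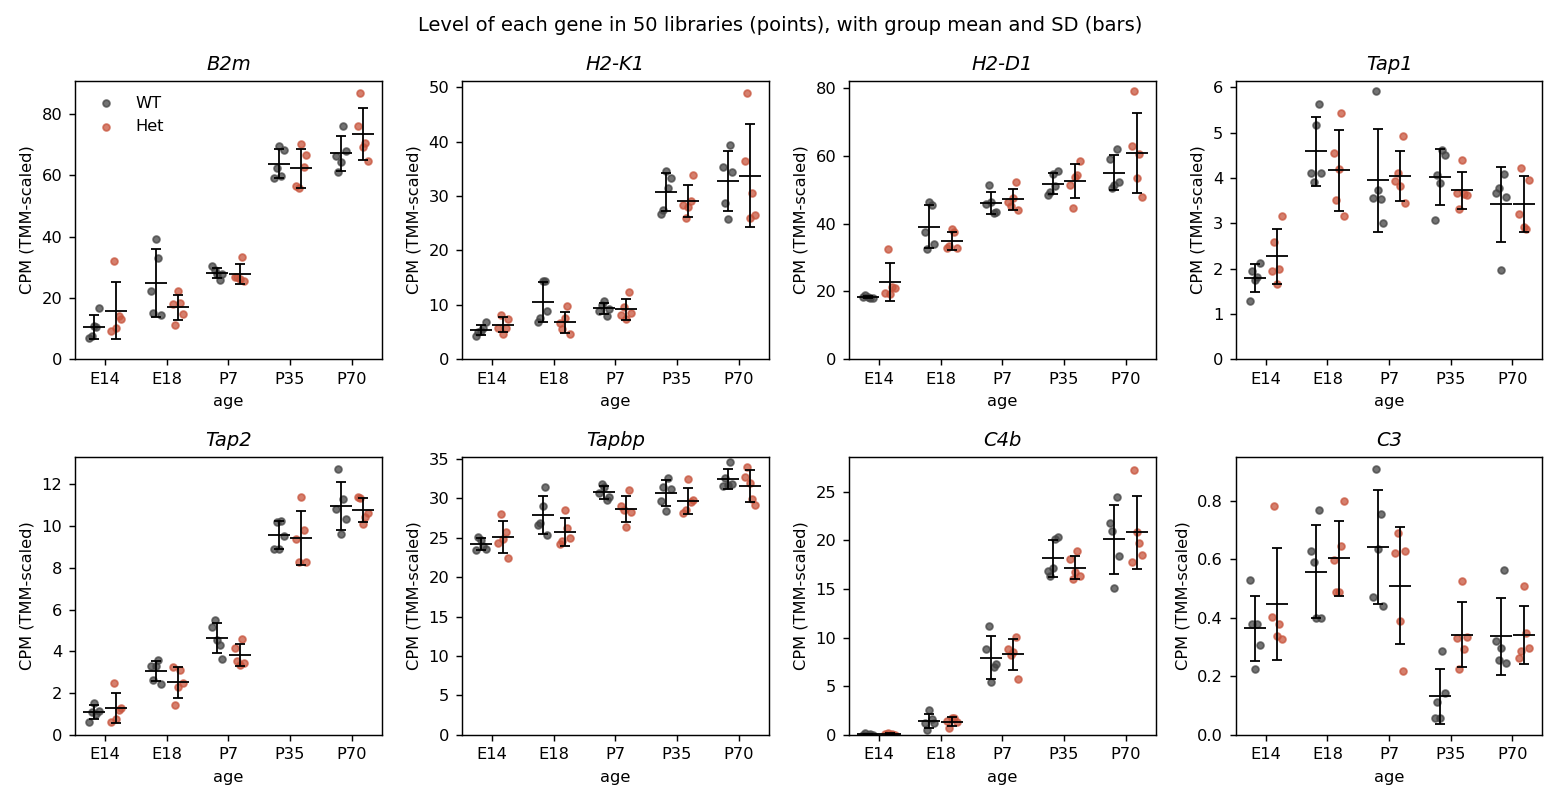
Level of each of the 8 genes in every library, by age and genotype. Each point is 1 library.

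The levels over age are described first, from WT libraries, in the order of the genes' roles. A step is the difference of log2 levels between 2 consecutive ages, estimated by edgeR with its standard error (SE); its p is adjusted by Benjamini-Hochberg over the 16330 tested genes, and a gene is called at an adjusted p under 0.05. Between E14 and E18, 7 of the 8 genes rose and 0 fell, where 31.8% of all tested genes were called higher and 34.1% lower, and 5 of 8 rose at least 2-fold, where 12.0% of all did and 4.45% fell as far. Between E18 and P7, 3 of 8 rose (33.9% of all tested genes) and 0 fell (33.4%), and 1 of 8 rose (11.4%) and 0 fell (4.50%) at least 2-fold. From P7 to P35, 4 of 8 rose (32.6%), each at least 2-fold (9.87%), and 1 of 8 fell (34.3%), also at least 2-fold (9.36%). From P35 to P70, 0 of 8 were called higher (0.533%) or lower (0.527%) by edgeR. At an unadjusted p under 0.05 there was 1, C3, where edgeR had 1849 of the 16330 tested genes. In that step limma-voom and DESeq2 also called 0 with 1 under 0.05. At least 2-fold, 0 of 8 rose (0.0674%) or fell (0.0122%) in that step.

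The median step of the 8 genes was 1.17 between E14 and E18, against -0.01 over all tested genes. It was 0.19 against 0.00 between E18 and P7, 0.61 against -0.01 between P7 and P35, and 0.09 against 0.00 between P35 and P70. In bulk tissue, more cells of a type and more RNA per cell cannot be told apart, here or in any value below.

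B2m, the light chain that all class I heavy chains share, rose in 2 steps. In WT it was 6.78, 7.40, 10.8, 10.6 and 16.5 CPM at E14 and 22.1, 15.1, 39.4, 33.1 and 14.5 CPM at E18. At P7 it was 30.4, 29.2, 27.7, 26.0 and 27.7 CPM, at P35 59.2, 62.3, 69.6, 59.8 and 68.4 CPM, and at P70 66.4, 61.2, 64.3, 76.2 and 67.8 CPM. The E14 and E18 libraries overlap, E18 spans the whole range of P7, every P35 library is above every P7 library, and P35 and P70 overlap. The log2 step was 1.246 (SE 0.239, adjusted p = 1.5e-05) to E18 and 1.18 (SE 0.23, adjusted p = 1.62e-05) to P35, while the step to P7 was 0.18 (adjusted p = 0.495) and that to P70 0.07 (adjusted p = 0.956). Without E18 WT replicate 3, which had the highest endothelial sum at that age, the first step was 1.02. With the endothelial sum as a covariate, an analysis chosen after seeing the data, it was 0.36 (adjusted p = 0.0418), and the step to P7 was 0.36 (adjusted p = 0.00907) and called.

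H2-K1 is 1 of the 2 classical heavy chains of this strain's class I molecules. It was 4.20, 4.93, 5.14, 5.63 and 6.81 CPM at E14 in WT, 6.90, 7.59, 14.4, 14.3 and 8.91 CPM at E18, and 8.9, 9.93, 10.7, 8.01 and 9.15 CPM at P7. It then stood at 26.6, 27.4, 34.5, 31.4 and 33.3 CPM at P35 and 35.3, 28.7, 25.7, 39.4 and 34.4 CPM at P70. All E18 libraries are above all E14 libraries, with replicates 3 and 4 highest; E18 and P7 overlap, P35 is clear of P7, and P35 and P70 overlap. H2-K1 rose by 0.96 (SE 0.19, adjusted p = 3.29e-05) to E18 and by 1.72 (SE 0.19, adjusted p = 8.16e-11) to P35; its steps to P7 and P70 were -0.16 (adjusted p = 0.460) and 0.09 (adjusted p = 0.922). With the endothelial sum as a covariate the H2-K1 step to E18 was 0.52 (adjusted p = 0.0269).

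H2-D1, the other classical heavy chain, rose in 1 step, before birth. In WT it was 18.5, 18.8, 18.2, 18 and 18.2 CPM at E14, 37.4, 32.5, 46.3, 45.4 and 34.1 CPM at E18, and 46.0, 51.3, 46.5, 43.1 and 43.5 CPM at P7. The E14 libraries are within a narrow band far below E18, and E18 and P7 overlap. It was 48.4, 49.4, 54.8, 51.0 and 55.6 CPM at P35 and 59.1, 50.4, 51.4, 62.0 and 52.2 CPM at P70, so each postnatal age overlaps the next. The step to E18 was 1.09 (SE 0.11, adjusted p = 1.69e-11). The later steps were 0.24 (adjusted p = 0.0517), 0.17 (adjusted p = 0.161) and 0.09 (adjusted p = 0.862), none called; limma-voom put the step to P7 at 0.25 (adjusted p = 0.0314) and DESeq2 at 0.26 (adjusted p = 0.0276), and leaving out E18 WT replicate 3 also brought it under the threshold (0.30, adjusted p = 0.0195).

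The promoters of the class I genes are described by sequence, and whether they bear on the co-variation described further on was not tested. They come from the RefSeq promoter table (build GRCm38.p6, 250 bases before to 50 after each start), which holds 6 of the 8 genes; Tap2 and C4b have no entry. Motifs were searched on both strands in 32851 promoters: GAANNGAAA, a form of interferon-response elements, in 7.52%; another form, 2 copies of GAAA with 2 free bases between them, added after seeing the sequences, in 3.44%; GGGGATTCC, a kappa-B sequence, in 0.25%; and TGACG, a core of cAMP-response-like elements, in 20.8%. H2-K1 and H2-D1 hold GAANNGAAA, GGGGATTCC and TGACG in the same order, and not the paired GAAA. GGGGATTCC begins 111 and 171 bases before their starts, GAANNGAAA, on the opposite strand, 90 and 150 bases before, and TGACG 41 and 101 bases before. B2m holds the paired GAAA 139 bases before its start, TGACG 78 bases before and, on the opposite strand, TGACG 44 bases after it; Tap1 holds TGACG 86 bases before. Tapbp and C3 hold none of the 4 in this window. A match is a description of letters, not a site. Distances are from the listed start, and the listed starts of H2-K1, which has 2 entries, and of H2-D1 need not be equivalent positions. The sequences of B2m (chr2:122147437-122147736, plus strand), H2-K1 (chr17:34000298-34000597, minus strand), H2-D1 (chr17:35262844-35263143, plus strand) and Tap1 (chr17:34187306-34187605, plus strand) run 5′ to 3′ along the gene, with the matches in capitals.
B2m: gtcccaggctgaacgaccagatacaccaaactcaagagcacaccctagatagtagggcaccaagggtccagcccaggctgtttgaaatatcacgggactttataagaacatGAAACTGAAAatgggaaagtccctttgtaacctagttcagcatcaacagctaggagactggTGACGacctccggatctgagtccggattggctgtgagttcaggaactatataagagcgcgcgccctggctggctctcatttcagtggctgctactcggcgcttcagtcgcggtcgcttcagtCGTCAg
H2-K1: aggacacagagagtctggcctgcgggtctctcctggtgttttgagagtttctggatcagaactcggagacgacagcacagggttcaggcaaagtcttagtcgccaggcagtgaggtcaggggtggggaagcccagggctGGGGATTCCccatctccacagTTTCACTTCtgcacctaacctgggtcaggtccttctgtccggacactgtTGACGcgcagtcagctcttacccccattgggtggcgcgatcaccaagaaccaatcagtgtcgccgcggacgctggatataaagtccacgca
H2-D1: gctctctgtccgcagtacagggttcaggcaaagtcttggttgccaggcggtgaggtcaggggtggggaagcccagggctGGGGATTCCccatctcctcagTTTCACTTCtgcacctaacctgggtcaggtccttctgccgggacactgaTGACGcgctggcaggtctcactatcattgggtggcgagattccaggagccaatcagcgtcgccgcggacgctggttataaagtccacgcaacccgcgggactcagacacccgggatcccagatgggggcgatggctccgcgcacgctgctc
Tap1: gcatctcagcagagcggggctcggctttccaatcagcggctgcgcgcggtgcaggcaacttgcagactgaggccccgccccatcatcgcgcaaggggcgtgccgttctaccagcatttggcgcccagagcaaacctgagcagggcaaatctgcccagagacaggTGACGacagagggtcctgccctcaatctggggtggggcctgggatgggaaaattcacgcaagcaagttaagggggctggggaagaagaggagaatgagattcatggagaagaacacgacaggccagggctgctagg

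Tap1 and Tap2, the 2 subunits of the peptide transporter, followed different courses after E18. Tap1 in WT was 1.29, 1.95, 1.74, 1.81 and 2.13 CPM at E14, 4.10, 3.92, 5.16, 5.63 and 4.12 CPM at E18, and 3.55, 5.91, 3.73, 3.53 and 3.01 CPM at P7. It was 3.06, 4.06, 3.90, 4.61 and 4.50 CPM at P35 and 3.67, 3.79, 1.96, 4.09 and 3.57 CPM at P70. E14 lies below all later ages except for P70 replicate 3, and from E18 on each age overlaps the next. The step of Tap1 to E18 was 1.36 (SE 0.19, adjusted p = 2.81e-08), and the later steps were -0.22, 0.03 and -0.24 (adjusted p = 0.292, 0.905 and 0.696). P7 WT replicate 2, the library with choroid plexus and oligodendrocyte markers, is the highest at its age; without it the step to P7 was -0.41 (adjusted p = 0.0376) and called.

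Tap2 in WT was 0.617, 1.08, 1.54, 1.00 and 1.16 CPM at E14, 3.32, 2.61, 3.31, 3.56 and 2.45 CPM at E18, and 5.14, 5.52, 4.53, 4.31 and 3.65 CPM at P7. It reached 8.92, 10.2, 8.89, 10.3 and 9.52 CPM at P35 and 10.8, 12.7, 9.65, 11.3 and 10.4 CPM at P70. No age up to P35 overlaps the next, while P35 and P70 overlap. Tap2 rose by 1.49 (SE 0.22, adjusted p = 9.89e-08) to E18, 0.60 (SE 0.20, adjusted p = 0.00729) to P7 and 1.04 (SE 0.19, adjusted p = 8.27e-06) to P35; the step to P70 was 0.20 (adjusted p = 0.784). Without the 2 libraries with Xist counts and P7 WT replicate 2, left out together after seeing the data, the step of Tap2 to P7 was 0.48 (adjusted p = 0.0535) and no longer called. With the endothelial sum as a covariate the step of Tap2 to E18 was 0.91.

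Tapbp, tapasin, had the smallest of the called steps. Its WT libraries ranged from 23.4 to 25.1 CPM at E14, 25.4 to 31.5 at E18, 29.8 to 31.8 at P7, 28.3 to 32.6 at P35 and 31.5 to 34.7 at P70. E18 is clear of E14 by a small margin, and all later ages overlap their neighbours. Tapbp rose by 0.21 (SE 0.06, adjusted p = 0.00134) to E18 and 0.14 (SE 0.06, adjusted p = 0.0223) to P7, and its later steps were -0.01 (adjusted p = 0.930) and 0.08 (adjusted p = 0.628). Both calls depend on the analysis: with the endothelial sum as a covariate the step to E18 was 0.07 (adjusted p = 0.292). The step to P7 was 0.12 (adjusted p = 0.0671) without the 2 Xist libraries, 0.09 (adjusted p = 0.233) when scaled by library size only, and 0.11 (adjusted p = 0.106) without E18 WT replicate 5.

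C4b, the mouse gene for complement C4, had the widest range. At E14 its raw counts were 0, 5, 1, 2 and 0 in WT and 2, 7, 0, 3 and 1 in Het, 8 and 13 fragments in all, so any fold change from E14 depends on the small count added to each value. At E18 WT held 1.23, 0.487, 2.56, 1.64 and 1.20 CPM (counts 47, 19, 102, 68 and 48), and at P7 8.85, 11.2, 5.45, 6.95 and 7.24 CPM. C4b was then 16.9, 16.3, 17.1, 20.1 and 20.3 CPM at P35 and 21.7, 20.9, 15.1, 24.5 and 18.3 CPM at P70. Each age up to P35 is above the one before without overlap, and P35 and P70 overlap. The fitted steps were 4.97 (SE 0.49, adjusted p = 7.47e-12), 2.48 (SE 0.26, adjusted p = 1.6e-11), 1.19 (SE 0.23, adjusted p = 1.26e-05) and, to P70, 0.15 (adjusted p = 0.895). The related gene C4a, which the annotation lists as a processed transcript and which was therefore not tested, had mean WT levels of 0.600, 0.628, 0.698, 0.561 and 0.721 RPKM from E14 to P70, a flat course beside that of C4b.

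C3, the component on which the complement pathways meet, fell in 1 step and was counted few times per library. Its counts in WT were 18, 14, 9, 14 and 13 at E14, 24, 23, 16, 32 and 16 at E18, and 18, 37, 23, 28 and 16 at P7. They were 2, 4, 2, 10 and 5 at P35 and 11, 9, 10, 20 and 9 at P70. Every P35 library is below every P7 library, replicate 4 of P35 is as high as the lower P70 libraries, and the 3 earliest ages overlap. C3 fell by 2.26 between P7 and P35 (SE 0.36, adjusted p = 4.41e-07). Its other steps were 0.62 (SE 0.32, adjusted p = 0.0803) to E18, 0.20 (adjusted p = 0.560) to P7 and 1.33 (SE 0.38, adjusted p = 0.0770) to P70; the step to P70 was called without P35 WT replicate 4 (1.82, adjusted p = 0.0207).

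Per exon length, the order of the mean WT levels at E14 was B2m 12.1 RPKM (SD 4.51), H2-D1 7.11 (SD 0.116), Tapbp 6.66 (SD 0.205), H2-K1 1.82 (SD 0.329), Tap1 0.326 (SD 0.0571), Tap2 0.285 (SD 0.0872), C3 0.0708 (SD 0.0217) and C4b 0.00754 (SD 0.00989). At P70 the order in RPKM was B2m 78.1 (SD 6.54), H2-D1 21.3 (SD 2.01), H2-K1 11.1 (SD 1.86), Tapbp 8.95 (SD 0.360), C4b 3.53 (SD 0.625), Tap2 2.90 (SD 0.305), Tap1 0.624 (SD 0.153) and C3 0.0654 (SD 0.0255). C4b, last at E14, thus stood above Tap1, Tap2 and C3 at P70, and Tap2 above Tap1. Tap1 and Tap2 at E14 differ by less than their spread. At the ages between, mean WT levels of B2m were 28.9, 32.8 and 74.3 RPKM, of H2-D1 15.2, 17.9 and 20.1, and of H2-K1 3.55, 3.18 and 10.4. Tap2 went from 0.807 to 1.22 and 2.53 RPKM and C4b from 0.250 to 1.39 and 3.19 RPKM, while Tap1 stayed at 0.838, 0.721 and 0.735, Tapbp at 7.68, 8.48 and 8.45, and C3 had 0.108, 0.125 and 0.0256 RPKM.

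**Figure D2:**
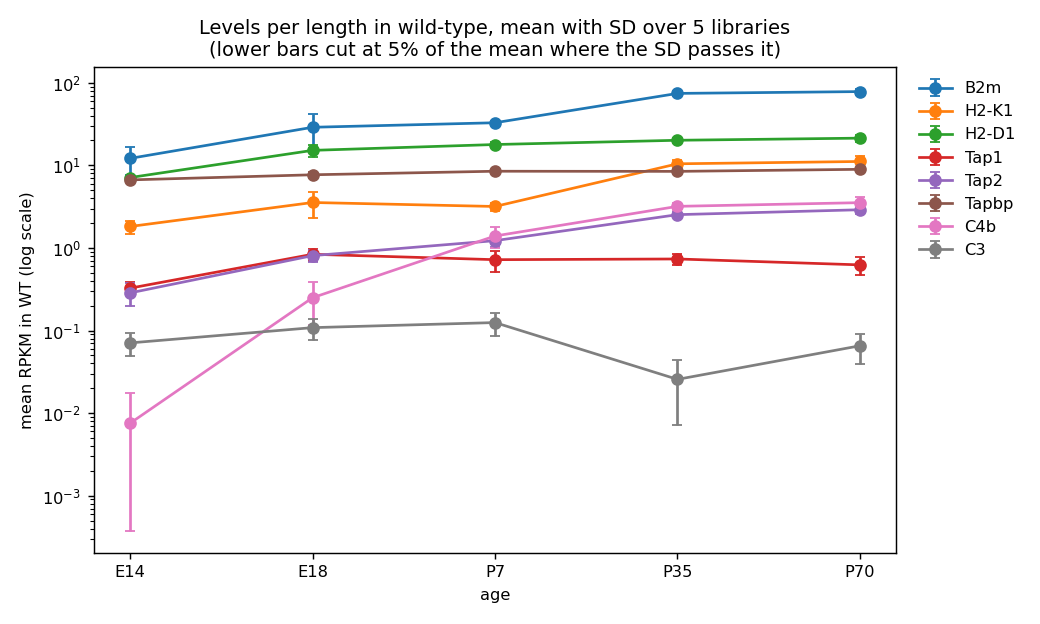
Mean level per exon length of the 8 genes at the 5 ages in WT, with the SD of 5 libraries. The vertical scale is logarithmic, and lower bars are shortened where the SD exceeds the mean.

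In Het libraries the same steps gave another set of calls. The median step of the 8 genes in Het was 0.53 to E18 and 0.43 to P7, against -0.01 at each over all tested genes. To E18 the Het steps were 0.62 for H2-D1, 0.87 for Tap1 and 0.97 for Tap2. C4b had 4.29, from 13 fragments in all at E14. B2m in Het was 9.16, 32.0, 10.3, 14 and 13.2 CPM at E14, 17.9, 11.2, 22.1, 18.3 and 14.8 CPM at E18, and 26.9, 26.8, 26.1, 33.5 and 25.5 CPM at P7. E14 and E18 overlap, with replicate 2 of E14 above all of E18 and replicates 1 and 3 below it, and P7 is clear of E18. The step of B2m in Het was 0.10 (SE 0.24, adjusted p = 0.730) to E18 and 0.72 (SE 0.23, adjusted p = 0.00621) to P7. H2-K1 in Het had 0.11 (adjusted p = 0.644) to E18 and 0.43 (adjusted p = 0.0461) to P7, and C3 in Het had -0.58 (SE 0.32, adjusted p = 0.111) between P7 and P35. Of the 8 genes, 4 rose to E18 in Het (32.0% of all tested genes), 6 to P7 (32.7%), 4 to P35 (34.5%) and 0 to P70 (1.51%), and 0 fell in any step (32.5%, 35%, 33.3% and 1.47%). A call in WT and none in Het does not show that the steps differ; the joint test of age by genotype gave adjusted p = 0.652 for B2m, 0.707 for H2-K1 and 0.619 for C3.

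Between genotypes, none of the 8 genes was called in any comparison, so the values below are descriptions of libraries. Het minus WT with age as a covariate gave 0 of 8 (4.43% of all tested genes called), and the age by genotype interaction 0 of 8 (0%). At single ages it was 0 of 8 at E14 (0.129%), E18 (0.110%), P7 (0.735%), P35 (0%) and P70 (0.233%). The genes called among all tested depend on single libraries: leaving out 1 gave 1 to 735 at E14, where B2m was called in 1 case, 7 to 55 at E18, 7 to 211 at P7 and 8 to 101 at P70, and DESeq2 gave 114 at E14, 111 at E18 and 77 at P70. The counts of 0 of 8 are from edgeR, and limma-voom and DESeq2 also called 0 of 8 in each. Unadjusted p under 0.05 was reached by edgeR, limma-voom and DESeq2 for 1, 1 and 0 genes with age as a covariate, 3, 1 and 4 in the interaction, 2, 1 and 2 at E14, 3, 3 and 3 at E18, 0, 0 and 0 at P7, 1, 1 and 1 at P35, and 0, 0 and 0 at P70. By edgeR, of the 16330 tested genes, 2360 reached it with age as a covariate, 1098 in the interaction, 1895 at E14 and 1857 at E18. At P7, P35 and P70 it was reached by 1447, 550 and 1070 of them. The median of the 8 log2 differences was 0.31 at E14 and -0.15 at E18, against -0.03 and 0.02 over all tested genes, and -0.02, -0.04 and 0.03 at P7, P35 and P70, against 0.00 at each.

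At E14 the class I genes had higher values in some Het libraries. H2-D1 was 19.6, 32.5, 19.4, 21.4 and 20.9 CPM in Het against 18.5, 18.8, 18.2, 18 and 18.2 CPM in WT. All 5 Het libraries are above all 5 WT libraries, 1 of 8 genes without overlap where 0.784% of all tested genes do not overlap at E14; at E18, P7, P35 and P70 it was 0 of 8 (2.22%, 2.23%, 2.25% and 1.79%). The log2 difference of H2-D1 was 0.31 (SE 0.11, adjusted p = 0.189), and 0.15 without E14 Het replicate 2, the library with 254 RPKM of endothelial markers. B2m, with the Het values above, was higher than every WT library in replicate 2 only, with a log2 difference of 0.59 (SE 0.24, adjusted p = 0.268). It was 0.16 without that library, and 0.82 (adjusted p = 0.0465, called) without E14 WT replicate 5, 1 of the 2 libraries with Xist counts. H2-K1 was 5.80, 8.11, 4.69, 5.66 and 7.32 CPM in Het at E14, 2 libraries above the highest WT library, with a difference of 0.24 (SE 0.20, adjusted p = 0.699).

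The other genes at E14 overlapped between genotypes. Tap1 was 1.95, 2.58, 1.66, 2.00 and 3.17 CPM in Het, with a log2 difference of 0.35 (SE 0.19, adjusted p = 0.501). Tap2 was 0.632, 2.48, 0.778, 1.19 and 1.28 CPM in Het, highest again in replicate 2, with 0.23 (adjusted p = 0.757), and -0.15 without that replicate. Tapbp had 0.05 (adjusted p = 0.784), C3 0.30 (adjusted p = 0.790) and C4b, on the 21 fragments above, 0.62 (SE 0.86, adjusted p = 0.852). Without E14 Het replicate 2, C3 had -0.00443 and C4b -0.12, and without E14 WT replicate 2 C4b had 1.605.

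At E18 some Het libraries had lower values of H2-K1 and B2m than WT. H2-K1 was 6.64, 5.6, 7.48, 9.69 and 4.63 CPM in Het against 6.90, 7.59, 14.4, 14.3 and 8.91 CPM in WT, 3 Het libraries below the lowest WT library. B2m was 17.9, 11.2, 22.1, 18.3 and 14.8 CPM in Het against 22.1, 15.1, 39.4, 33.1 and 14.5 CPM in WT. H2-D1 was 32.8, 33.3, 38.3, 37.5 and 32.8 CPM in Het, all within the WT range. For each of the 3 genes the 2 highest libraries are WT replicates 3 and 4, which also hold the most endothelial, choroid plexus and red blood cell marker RNA at E18. The log2 differences were -0.61 (SE 0.19, adjusted p = 0.172) for H2-K1, -0.56 (SE 0.23, adjusted p = 0.338) for B2m and -0.16 (adjusted p = 0.595) for H2-D1. Without WT replicate 3 they were -0.47, -0.33 and -0.10. Tapbp had -0.12 (SE 0.06, adjusted p = 0.413), Tap2 -0.28 (adjusted p = 0.636), Tap1 -0.14 (adjusted p = 0.816), C4b -0.06 (adjusted p = 0.958) and C3 0.12 (adjusted p = 0.920).

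Markers of several kinds of cells had median differences between genotypes at E14, E18 or both, with none of them called. Of all tested genes, 0.129% were called at E14 and 0.110% at E18. For endothelial cells the median log2 difference, Het minus WT, was 0.77 at E14 and -0.60 at E18, with 0 of 10 called at either age. Pericyte markers had 0.65 and -0.32 and meningeal markers 1.71 and -0.34, also with 0 called. These E14 medians include Het replicate 2, which had the highest sum of each of these lists at that age. The endothelial sums of E14 Het replicates 1, 3, 4 and 5 were 43.4, 43.2, 85.1 and 42.2 RPKM, against 41.7 to 61.4 RPKM in E14 WT. The 7 red blood cell markers, led by Hbb-bs, had median differences of 0.53 at E14 and -0.51 at E18. The 6 markers of border macrophages, led by Pf4, had 1.19 and -0.12, and choroid plexus markers 0.06 and -1.01, again with 0 called. Red blood cell markers summed to 477, 414, 419, 633 and 1322 RPKM in E14 WT and 328, 1004, 1223, 1160 and 1163 RPKM in E14 Het, and to 240, 239, 469, 569 and 217 RPKM in E18 WT and 287, 220, 291, 203 and 166 RPKM in E18 Het. Border macrophage markers summed to 0.817, 1.74, 4.81, 3.78 and 8.69 RPKM in E14 WT and 1.36, 18.7, 5.88, 9.03 and 8.68 RPKM in E14 Het, with replicate 2 again the highest, and to 17.9, 4.8, 22.3, 16.8 and 1.96 RPKM in E18 WT and 14.5, 2.13, 26.7, 8.23 and 8.67 RPKM in E18 Het. No marker of these 2 lists was at 0 throughout an E14 or E18 group. With the endothelial sum as a covariate, chosen after seeing the data, the Het minus WT difference of B2m was 0.07 at E14 and 0.05 at E18, of H2-D1 0.12 and 0.07, and of H2-K1 0.04 and -0.32 (adjusted p = 0.601 at E18). Whether cells of vessels, blood, meninges or choroid plexus account for the values of the 8 genes was not tested.

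**Figure D3:**
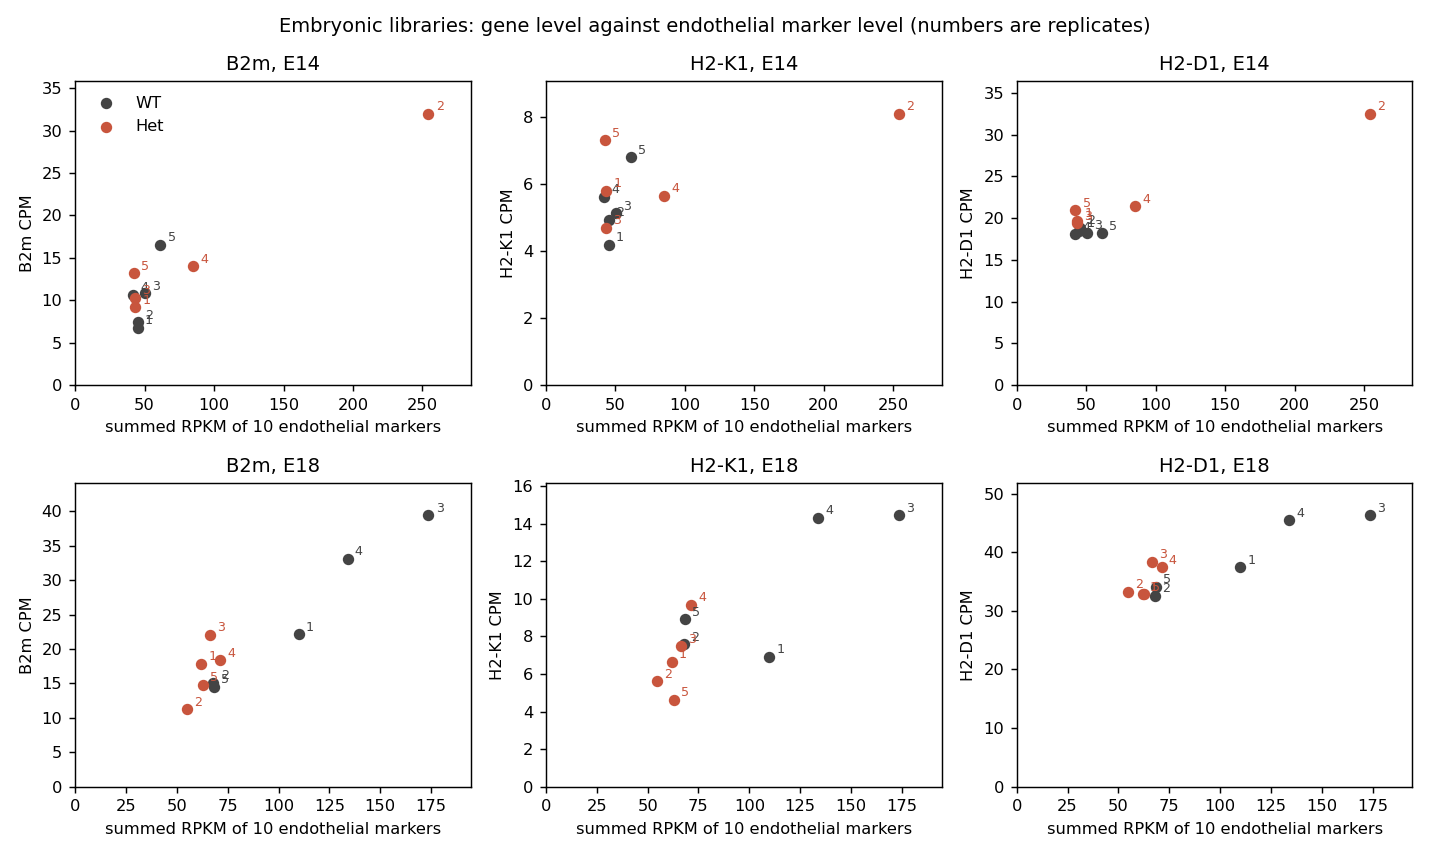
Level of class I genes against the summed level of the endothelial markers in embryonic libraries, by gene and age. Each point is 1 library, numbered by replicate.

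After birth the largest log2 difference was that of C3 at P35, which was not called. C3 was counted 13, 8, 18, 10 and 12 times in Het at P35, against 2, 4, 2, 10 and 5 times in WT. Scaled, these are 0.330, 0.226, 0.525, 0.293 and 0.334 CPM in Het and 0.0583, 0.110, 0.0577, 0.288 and 0.144 CPM in WT. In CPM, 4 Het libraries are above the highest WT library, replicate 4, and the groups overlap by the remaining Het library. The log2 difference was 1.35 (SE 0.38, adjusted p = 0.383), and 1.84 without WT replicate 4. At P7 and P70 the C3 differences were -0.33 (adjusted p = 0.852) and 0.02 (adjusted p = 1.00).

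C4b ranged from 16 to 18.9 CPM in Het at P35 and from 17.7 to 27.2 CPM at P70, overlapping WT at both ages, with log2 differences of 0.05, -0.08 and 0.05 at P7, P35 and P70. B2m had -0.02, -0.03 and 0.13 at these ages, H2-K1 -0.02, -0.08 and 0.04, H2-D1 0.03, 0.02 and 0.14, and Tap1 0.03, -0.11 and 0.01. Tap2 was 4.17, 3.54, 3.34, 4.60 and 3.45 CPM in Het at P7, 3 libraries below the lowest WT library, with -0.28 (SE 0.20, adjusted p = 0.773). Tapbp was 29.0, 28.5, 26.4, 31.0 and 28.3 CPM in Het at P7, 4 libraries below the lowest WT library, with -0.10 (SE 0.06, adjusted p = 0.612); with age as a covariate its difference was -0.05 (SE 0.03, adjusted p = 0.342), the smallest adjusted p among the 8 genes in that fit. At P70, Het replicate 2 had the highest values of its group for B2m (86.8 CPM), H2-K1 (48.9 CPM) and H2-D1 (79.1 CPM), and also the highest endothelial sum of the postnatal libraries (128 RPKM).

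**Figure D4:**
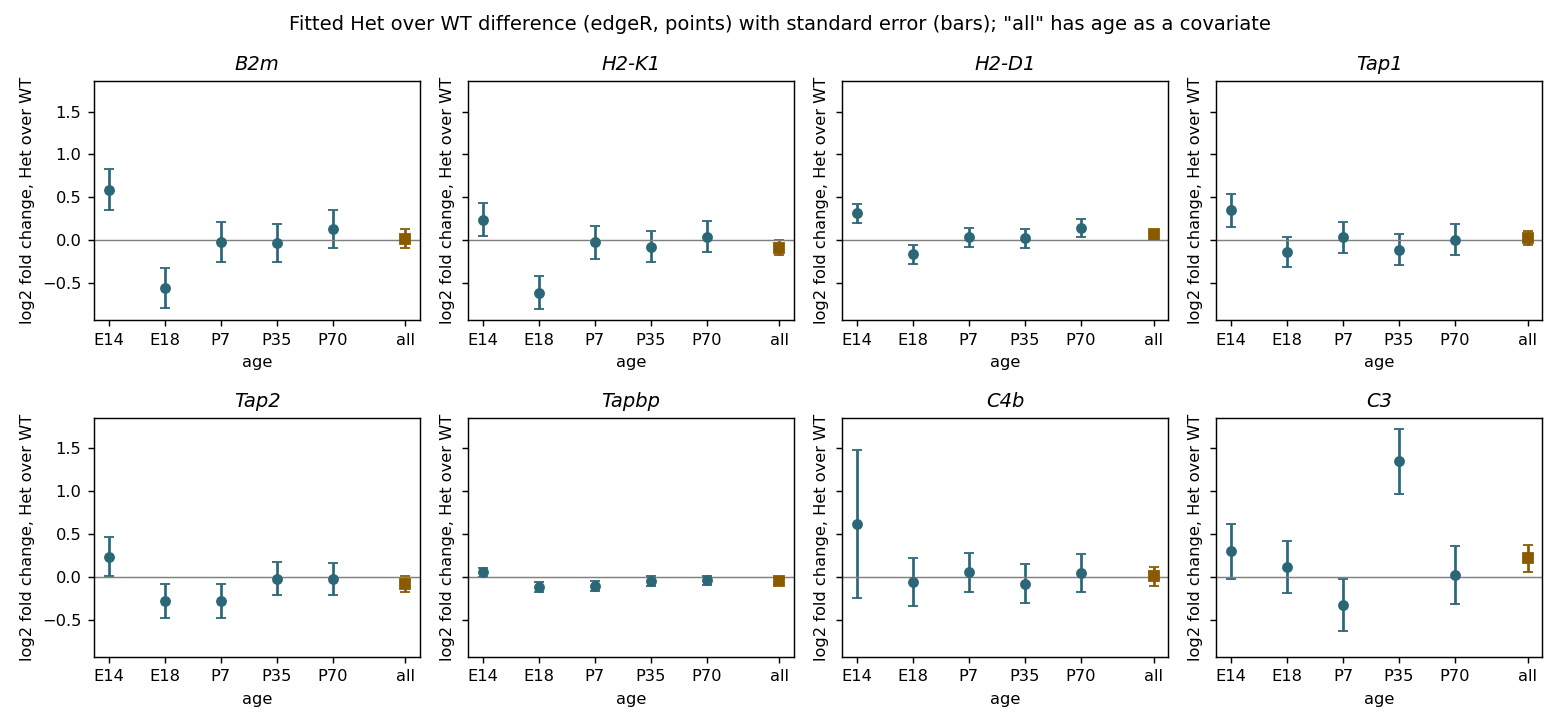
Het minus WT log2 difference of each gene at each age and, as all, with age as a covariate, with its standard error. No difference passed the threshold on the adjusted p.

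Within a group of 1 age and genotype, the class I genes varied together from animal to animal. This was measured as the correlation of log2 CPM deviations from the group means over 50 libraries for 28 pairs of genes, with permutation p-values from 100000 permutations of libraries within group, adjusted over the 28 pairs. The correlation was above 0 in 27 of 28 pairs (49.9% of all pairs of tested genes). The median r was 0.49, a level that by definition 50% of the 28 pairs reach, and that 3.44% of all pairs of tested genes reach. Of the 28 pairs, 22 had an adjusted p under 0.05 (21 by Spearman's rho). All 15 pairs among B2m, H2-K1, H2-D1, Tap1, Tap2 and Tapbp were among them, and so were all 6 pairs of C4b with these genes, but 1 of the 7 pairs with C3. Fewer pairs passed in part of the libraries, 12 of 28 in the 25 WT libraries and 16 in the 25 Het libraries. B2m with C4b (adjusted p = 0.0224) did not pass in WT libraries (0.404), with a prior count of 0.5 (0.111) or, chosen after seeing the data, without E14 Het replicate 2 (0.113) or in embryonic libraries (0.0619).

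By Pearson's r the closest pairs were H2-K1 with H2-D1 (r = 0.74, rho = 0.74) and B2m with H2-D1 (r = 0.74, rho = 0.76), each with permutation p = 1e-05, the smallest these permutations can give, and adjusted p = 5.6e-05. B2m with Tap2 had r = 0.73 (adjusted p = 0.000187) and B2m with H2-K1 r = 0.69 (adjusted p = 5.6e-05) and the highest rho of the 28 pairs, 0.78. C4b was closest to H2-D1 (r = 0.62, adjusted p = 5.6e-05). Tapbp with C3 had r = 0.33 (adjusted p = 0.0429) but rho = 0.27 (adjusted p = 0.105). Leaving out the 2 libraries farthest from the median of the first gene, E14 Het replicate 2 and E18 WT replicate 3 for B2m, gave r = 0.61 for B2m with H2-D1, 0.66 with Tap2 and 0.67 with H2-K1. Without the single library E14 Het replicate 2, 20 of 28 pairs had an adjusted p under 0.05; it was 14 in the 20 embryonic libraries and 17 in the 30 postnatal ones, sets chosen after seeing the data.

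**Figure D5:**
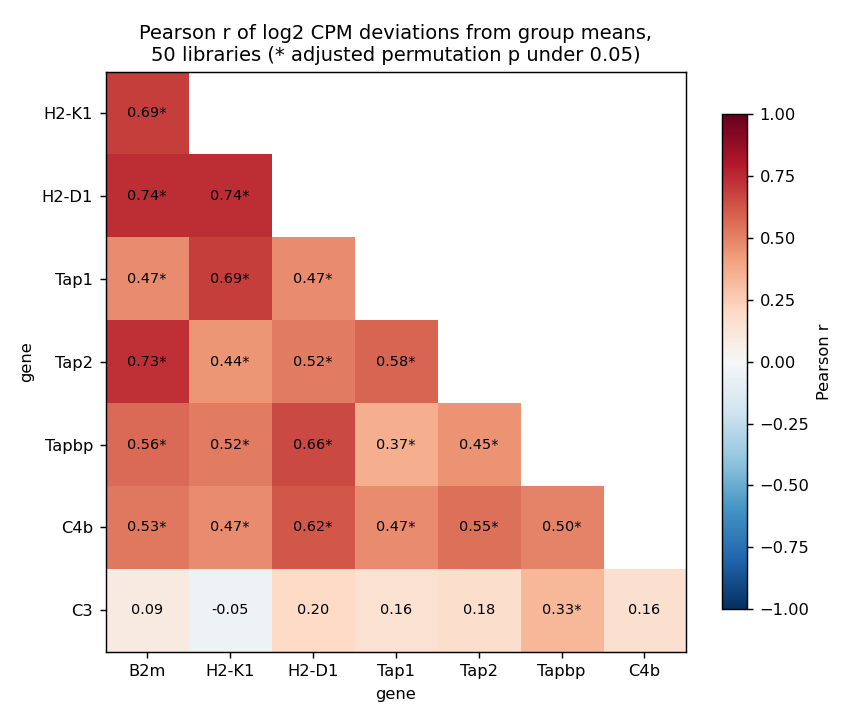
Correlation of the 28 pairs of genes over 50 libraries after the mean of each age and genotype is subtracted. Stars mark pairs with an adjusted permutation p under 0.05.

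The genes whose deviations were most like those of each member, over 50 libraries and with no test, differ between members. For B2m they were Bst2 (r = 0.93), Lgals9 (0.93), Ostf1 (0.92), Lamc3 (0.92) and Col4a5 (0.91). For H2-K1 they were H2-D1 (0.74), Bst2 (0.72), Pros1 (0.71), Ctss (0.70) and B2m (0.69), and for H2-D1 Vwf (0.81), Gja4 (0.81), Itgb1 (0.80), Ifitm3 (0.79) and Pecam1 (0.79). Bst2 and Ifitm3 are interferon-induced genes, and Vwf and Pecam1 are genes of endothelial cells. For Tap2 the first were Serpinb9 (0.87) and Apoe (0.85), for Tap1 H2-K1 (0.69) and Trim12c (0.69), for Tapbp Myh11 (0.72) and Fbln5 (0.70), for C4b Slc22a8 (0.73) and Psmb8 (0.71), and for C3 Vasp (0.54) and Vdr (0.54). No library was left out for these values. E14 Het replicate 2, which lay far above the rest of its group for B2m, H2-D1 and C3, is therefore part of them.

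Over all 50 libraries, age included, the most alike genes were not those named first above, though Ctss was also listed there for H2-K1. They were C1qc for B2m (r = 0.98), Ctss for H2-K1 (0.97), Bsg for H2-D1 (0.97), Trhr for Tap1 (0.83), Fxyd1 for Tap2 (0.99), Bcam for Tapbp (0.89), A230050P20Rik for C4b (0.99) and Ergic3 for C3 (0.69). C4b was the fourth most alike gene of H2-D1 (0.96). These correlations include the differences between ages.

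Of the 8 genes, 7 lie on chromosome 17 and B2m on chromosome 2. In build GRCm38 the order on chromosome 17 is Tapbp (33915899 to 33929292), H2-K1 (33996017 to 34000347), Tap1 (34187553 to 34197225), Tap2 (34203527 to 34216321), C4b (34728380 to 34743882), H2-D1 (35262730 to 35267499) and, far from these, C3 (57203970 to 57228136). Fragments were counted without strand and for every gene they touch. Of the exon bases of Tapbp, 29% are shared with Gm19412 and Zbtb22, of Tap2 18.5% with Gm15821 and Gm20496, and of Tap1 3.87% with Psmb9. Of stretches of 150 bases, 10% of those in Tapbp also occur in Gm19412, 7.48% of those in C4b in C4a, 1.35% of those in H2-D1 in H2-Q1, 1.04% of those in Tap1 in Psmb9 and 0.565% of those in Tap2 in Gm15821, and reads that align in several places were not counted, while B2m, H2-K1 and C3 share none.

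The wider pathway was described from gene lists, again as WT steps. Of 24 listed class I heavy chains other than the 2 members, 14 were tested. To E18, 7 rose and 1 fell (31.8% and 34.1% of all tested genes), and to P7, 4 rose and 3 fell (33.9% and 33.4%). To P35, 6 rose and 3 fell (32.6% and 34.3%), and 1, H2-T22 (0.36, adjusted p = 0.0346), rose to P70 (0.533%). The medians of the 14 were 0.35, 0.25, 0.39 and 0.00, against -0.01, 0.00, -0.01 and 0.00 over all tested genes. Cd1d1, which presents lipids, fell by 2.03 (SE 0.22) to P7 and by 1.96 (SE 0.25) to P35, from a mean of 14.5 RPKM at E14 to 0.438 RPKM at P70. H2-T23, which presents leader peptides of other class I chains, fell by 0.93 (SE 0.18) to P7 and rose by 2.63 (SE 0.18) to P35, to 9.4 RPKM at P70. Fcgrt, the neonatal Fc receptor, rose by 1.99 (SE 0.39) and Mr1, which presents vitamin metabolites, by 1.4 (SE 0.26) between E14 and E18.

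All 14 listed genes of peptide supply and loading were tested. Of these, 9 rose and 2 fell to E18 (31.8% and 34.1% of all tested genes), and 5 rose and 2 fell to P7 (33.9% and 33.4%). To P35, 5 rose and 6 fell (32.6% and 34.3%), and 0 passed to P70 (0.533% and 0.527%). The medians were 0.29, 0.14, 0.01 and 0.04. Psmb10, an immunoproteasome subunit, rose by 1.013, 0.84 and 0.47 in the first 3 steps, and Tapbpl, a relative of tapasin, by 0.53, 0.35 and 0.95. Psme1 and Psme2, of the proteasome activator PA28, fell by 1.11 and 0.53 to P35. Rfx5, a regulator of MHC promoters, fell by 0.43 to E18. Calr, the chaperone calreticulin, was the most abundant of the list at 115 RPKM in WT at E14 and 131.2 RPKM at P70. Of 11 listed MHC class II genes, which show peptides taken up from outside, 10 were tested. To E18, 2 rose and 1 fell (31.8% and 34.1% of all tested genes), and to P7, 7 rose (33.9%). To P35, 6 rose and 1 fell (32.6% and 34.3%). The medians of the class II list were 0.40, 0.91 and 0.88, against -0.01, 0.00 and -0.01 over all tested genes. The invariant chain Cd74 rose by 1.60, 1.70 and 1.34. H2-Ab1 was the 1 gene of that list called for genotype with age as a covariate (0.47, SE 0.15, adjusted p = 0.0491), where 4.43% of all tested genes were called.

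Among receptors of class I molecules, 4 of 6 listed were tested. Cd247, a signalling chain, fell by 0.69 to E18 and 0.83 to P7, and Pirb and Lilra5 rose by 1.16 and 1.36 to P35.

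Of 10 listed genes of the classical complement pathway other than C4b and C3, 8 were tested. To E18, 5 rose and 1 fell (31.8% and 34.1% of all tested genes), and to P7, 6 rose and 1 fell (33.9% and 33.4%). To P35, 3 rose and 2 fell (32.6% and 34.3%), and 0 passed to P70 (0.533% and 0.527%). The medians of the 8 were 0.94, 0.68, 0.48 and 0.22. C1qa, a chain of the C1q recognition molecule, had mean WT levels of 4.59, 8.99, 12.7, 33.7 and 39.8 RPKM from E14 to P70 and rose by 0.97 (SE 0.20) to E18 and 1.41 (SE 0.19) to P35. C2, which is cleaved together with C4, fell by 2.24 (SE 0.11) to P7 and 0.64 (SE 0.11) to P35, from 9.16 RPKM at E14 to 0.903 RPKM at P70. C1ra, a protease of the C1 complex, rose by 1.94 to E18 and 1.82 to P7, and C1s2 rose by 0.90 to P7 and fell by 1.96 to P35.

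The other arms of complement had steps in both directions. Of 12 genes of the alternative and lectin pathways, 7 were tested. To E18, 2 rose and 4 fell (31.8% and 34.1% of all tested genes), and to P7, 2 fell (33.4%). To P35, 1 rose and 1 fell (32.6% and 34.3%). Masp1, a lectin pathway protease, fell by 0.52, 1.42 and 0.93 in the first 3 steps. Of 7 terminal pathway genes, 3 were tested, and C7 rose by 1.11 to E18 and 1.47 to P35, while C8g fell by 0.32 to E18. Of 8 complement receptors, 7 were tested. Of these, 3 rose to E18 (31.8% of all tested genes), 3 rose to P7 (33.9%), and 3 rose and 1 fell to P35 (32.6% and 34.3%). Itgam and Itgb2, which form complement receptor 3, rose by 1.33 and 1.24 to P7 and by 1.79 and 1.53 to P35, and Cr2 rose by 1.68 to E18 and fell by 1.41 to P35. Of 20 regulators, 17 were tested. To E18, 11 rose and 1 fell (31.8% and 34.1% of all tested genes), and to P7, 9 rose and 2 fell (33.9% and 33.4%). To P35, 6 rose and 2 fell (32.6% and 34.3%). Clu, clusterin, rose by 0.77, 1.81 and 2.04, from a mean of 6.2 RPKM at E14 to 167 RPKM at P70. Cd55, which speeds the decay of C3 convertases, rose by 1.64 and 1.05 and then fell by 0.86, and Susd4, a complement inhibitor, rose by 0.77 to P7 and 1.11 to P35. None of the genes of these 4 lists or of the classical list was called for genotype in any comparison. Of all tested genes, 4.43% were called for genotype with age as a covariate, and 0% to 0.735% at single ages.

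Interferon-response genes had called steps in both directions. Of 42 listed, 41 were tested. To E18, 38 rose and 0 fell (31.8% and 34.1% of all tested genes), and to P7, 3 rose and 21 fell (33.9% and 33.4%). To P35, 30 rose and 3 fell (32.6% and 34.3%), and 0 passed to P70 (0.533% and 0.527%). The medians were 1.80, -0.55, 1.14 and -0.07. Ifi27 rose by 3.13 (SE 0.31) and Gbp3 by 2.75 (SE 0.32) to E18. Ifit3 rose by 2.54 (SE 0.31) to P35. B2m, H2-K1 and H2-D1 rose to E18 with these genes, but none of the 3 fell to P7.

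The summed level of the interferon-response genes, led by Ifitm2 before P35 and by Ifi27 from then on, followed the libraries named above. It was 40.6, 52.9, 47.1, 42.3 and 59.5 RPKM in E14 WT and 43.1, 95.2, 65.4, 62.5 and 59.6 RPKM in E14 Het. At E18 it was 88.1, 71.6, 126, 135 and 63.7 RPKM in WT and 72.3, 62.4, 81.4, 82.1 and 72.9 RPKM in Het. E14 Het replicate 2 and E18 WT replicates 3 and 4 are the highest of their groups, and the genotypes overlap at both ages. The median Het minus WT difference of the list was 0.35 at E14 and -0.59 at E18. Of its genes, Gbp3 was called at E18 (-1.33, SE 0.29, adjusted p = 0.0445) and Ifit2 with age as a covariate (0.11, SE 0.03, adjusted p = 0.0351). Of all tested genes, 0.110% and 4.43% were called in these comparisons. The 4 interferon receptor genes were all tested, and Ifnar1 fell by 0.13, 0.47 and 0.38 in the first 3 steps, while Ifngr2 rose by 0.41 and 0.39 and then fell by 1.18.

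Microglia, the phagocytes of the brain that carry complement receptors, gained marker RNA over the same ages. The 12 microglial markers, all tested, summed in WT to 21.9, 23.1, 25.9, 26.1 and 25.1 RPKM at E14, 31.1, 27, 43.6, 34.8 and 30.3 RPKM at E18, and 61.0, 62.1, 64.5, 64.2 and 56.9 RPKM at P7. They summed to 135, 142, 128, 126 and 134 RPKM at P35 and 136, 127, 131.5, 141 and 137 RPKM at P70. No 2 neighbouring ages overlap until P35 and P70. Of the 12, 5 rose to E18 (31.8% of all tested genes), 11 to P7 (33.9%) and 12 to P35 (32.6%), with medians of 0.33, 1.00 and 1.09. Of these, P2ry12 rose by 2.00 to P7 and 1.44 to P35. Among the 8 genes, C4b and Tap2 rose in each of these 3 steps in WT, and B2m and H2-K1 in the steps to E18 and P35. Tapbp rose to E18 and P7, H2-D1 and Tap1 to E18 only, and C3 rose in none and fell to P35. What share of the RNA of the 8 genes comes from microglia was not tested.

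Astrocyte markers had higher sums at later ages up to P35, with overlap between E14 and E18. The 10 astrocyte markers, led by Aldoc or Slc1a2, summed in WT to 67.6, 79.2, 77.5, 78.0 and 86.9 RPKM at E14, 99.5, 93.1, 85.4, 121 and 82.8 RPKM at E18 and 248, 367, 226, 243 and 242 RPKM at P7. At P35 they summed to 586, 619, 574, 578 and 616 RPKM, and at P70 to 622, 591, 637, 596 and 590 RPKM. Of the 10, 8 rose and 2 fell to E18, 9 rose to P7 and 5 rose and 3 fell to P35, where 31.8% and 34.1%, 33.9% and 33.4%, and 32.6% and 34.3% of all tested genes rose and fell; whether the rise of C4b comes from these cells was not tested. Lymphocyte markers, of which 2 of 8 were tested, summed to 0.715, 0.902, 0.731, 0.705 and 0.668 RPKM in E14 WT, with Cd3e and Cd3g at 0 in all 5 libraries, and to 20.8, 21.1, 26.4, 27.3 and 26.8 RPKM at P70, of which Trbc2 made most.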

How the data were processed

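The deposited files hold raw fragment counts per gene, which the authors made with featureCounts 1.4.6-p2 (annotation Ensembl 102, fragments on exons, unstranded) after Trimmomatic, FastQC and STAR alignment to GRCm38. Symbols came from GENCODE vM21. The members and gene lists were chosen with earlier results of these data known. Counts of 16330 protein-coding genes were fitted with edgeR 4.0.16 (quasi-likelihood, TMM) in R 4.3.3, as 10 groups of age and genotype or as genotype with age as a covariate, and p-values were adjusted by Benjamini-Hochberg at 0.05. Alternatives used limma 3.58.1 (voom), DESeq2 1.42.0, other scalings and filters, RNA integrity as a covariate, replicate blocks and left-out libraries. The log2 CPM used a prior count of 2. Named genes are the 8 members, up to 5 called genes of each list with the smallest p in a comparison, the 5 most alike genes of each member and the most abundant gene of most marker lists. Replicates vary more than counting alone gives: chi-square per degree of freedom was 5.13 to 117 over 100 pairs. The procedure was tested on simulated data. Co-variation and figures used Python 3.11.15 and matplotlib 3.10.9.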

Additional observations from a re-analysis of the deposited data

Results flagged for a closer look

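In 7 of 80 groups of 5 libraries, 1 library lay far from the other 4 by Dixon's test, which chance flags in about 1 in 20 groups, or 4 here. B2m was 32.0 CPM in E14 Het replicate 2, where the others had 9.16 to 14. B2m was 33.5 CPM in P7 Het replicate 4, where the others had 25.5 to 26.9. H2-D1 was 32.5 CPM in E14 Het replicate 2, where the others had 19.4 to 21.4. Tap1 was 5.91 CPM in P7 WT replicate 2, where the others had 3.01 to 3.73. Tap1 was low, 1.96 CPM, in P70 WT replicate 3, where the others had 3.57 to 4.09. C3 was 0.784 CPM in E14 Het replicate 2, where the others had 0.326 to 0.402. C3 was 0.564 CPM in P70 WT replicate 4, where the others had 0.245 to 0.320. None of the 8 genes passed the test of a genotype difference between ages.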

How the results depend on the processing

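The genotype and age results of the 8 genes were recomputed under each alternative, 88 values for most settings. Direction and call were kept in 85 of 88 with limma-voom, 86 with DESeq2, 86 with DESeq2's size factors, 84 with library size only, 64 of 66 with a filter of at least 10 CPM in at least 5 libraries (Tap1 and C3 fall below it and have no value there), 88 with no filter, 88 with all annotated genes, 85 with RNA integrity as a covariate and 85 without the 2 Xist libraries, and in 21 of 32 for the age steps over Het groups. Of the alternatives chosen after seeing the data, 83 of 88 were kept without 3 WT libraries (those 2 and P7 WT replicate 2), 75 with the endothelial covariate and 88 with the primary assembly annotation. Alternatives were run for the 8 genes, not for genes of the other lists. None of the age or genotype values of the 8 genes that passed the threshold changed direction under any setting. Calls that were lost or gained for single genes are given by setting. For values that moved, the cause was not tested. Low counts limit C3, at most 37 in any library, and C4b at E14, at most 7.

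Genes called for genotype at single ages, out of all tested, moved by more than 1.5 times in many settings. With limma-voom there were 10 at E18 and 16 at P7. With DESeq2 there were 77 at P70, 11 at P35, 111 at E18 and 114 at E14, with 21 in the interaction and 269 between P35 and P70. DESeq2's size factors gave 2 at P35, and library size only gave 3 at E14. The filter at 10 CPM gave 59 at P7, 1 at P35, 9 at E14 and 7 at E18, where fewer genes are tested, and all annotated genes gave 11 at E14 and 2 at P35. RNA integrity as a covariate gave 1 at E18 and 101 between P35 and P70. Without the 2 Xist libraries there were 13 in the interaction, 756 at E14, 77 at E18 and 3 at P35, and B2m was the 1 member called at E14 (0.82, adjusted p = 0.0393; over the settings its adjusted p ran from 0.0343 to 1). Without the 3 WT libraries there were 65 in the interaction, 1159 at E14, 5 at P35, 9 at P7, about 1.9e+02 at E18 and 299 between P35 and P70, and again 1 member, B2m, at E14 (0.82, adjusted p = 0.0343). The endothelial covariate gave 5 at E14 and 5 at P35, and 5 of the 8 genes called between E18 and P7, where B2m and H2-D1 were added.

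Directions that reversed were all of differences that did not pass the threshold in the report, and only H2-K1 over Het groups passed it after reversing (adjusted p = 0.0461, against 0.460 in WT). They were B2m with age as a covariate, -0.00611, and C4b at E18, 0.0527, with limma-voom. For Tapbp between P7 and P35 they were 0.000859 with DESeq2, 0.000837 with its size factors, 0.0129 with the filter at 10 CPM and 0.000870 without the 3 WT libraries. With library size only they were C4b with age as a covariate, -0.0107, Tap1 at P7, -0.00312, and Tap1 between P7 and P35, -0.0727. RNA integrity, whose values were joined to the libraries by sample name with no other check, reversed C4b at E18 (0.0475), H2-K1 at P70 (-0.0162) and Tap1 at P70 (-0.0425), and leaving out the 2 Xist libraries reversed C4b with age as a covariate (-0.0327). The endothelial covariate reversed Tap2 (-0.16), Tapbp (-0.0157) and C4b (-0.20) at E14, B2m (0.0533), H2-D1 (0.0712), Tap2 (0.0971) and C4b (0.68) at E18, and Tap1 (-0.00468) and C4b (-0.00434) at P70. Over Het groups, 4 members were called between E14 and E18 and 6 between E18 and P7, 487 genes between P35 and P70, and the reversed steps were H2-K1 (0.43) and C3 (-0.24) to P7, Tap1 (-0.12) and Tapbp (0.0518) to P35 and C3 (-0.00132) to P70.

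Between E18 and P7, H2-D1 was called with limma-voom (0.25, adjusted p = 0.0314), DESeq2 (0.26, 0.0276), its size factors (0.26, 0.0304), the filter at 10 CPM (0.27, 0.0305) and the endothelial covariate (0.28, 0.000582), which also called B2m (0.36, 0.00907). Tapbp lost its call there with library size only (0.0864, 0.233), without the 2 Xist libraries (0.12, 0.0671) and without the 3 WT libraries (0.12, 0.101), and the last also took the call from Tap2 (0.48, 0.0535) and gave it to Tap1 (-0.46, 0.0280). The endothelial covariate took the call of Tapbp between E14 and E18 (0.0698, 0.292) and gave 1 to H2-D1 between P7 and P35 (0.19, 0.0207). Over Het groups B2m (0.0990), H2-K1 (0.11) and Tapbp (0.0354) were not called between E14 and E18, B2m (0.72) and H2-D1 (0.43) were called between E18 and P7, and C3 (-0.58) was not called between P7 and P35.

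Scaling by library size only shifted the age steps as a whole. Between P7 and P35 the median over all genes was -0.11, with 4509 genes called higher and 6598 lower, against 5331 and 5608 with TMM. Between E18 and P7 it was 4979 and 6037, against 5534 and 5455, and between E14 and E18 5777 and 4929, against 5190 and 5567.

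The replicate numbers were tried as a block within age. No value of the 8 genes changed direction or call (56 of 56), while genes called became 3 in the interaction, 37 at E18, 20 at P7 and 3 at P35, with 0 members. As a check of pairing, libraries with the same number correlated above 0.1 in 9 of 25 pairs and the WT library correlated best with the Het library of its own number in 7, with r from -0.204 to 0.460 (median 0.0636), so not every library correlated best with its own number. No paired analysis was possible for the WT age steps because the blocks lie within age.

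Each library was also left out in turn. Genes called then ran from 653 to 774 for genotype with age as a covariate, from 0 to 5 for the interaction, from 1 to 735 for E14, from 10154 to 10766 for E18 minus E14, from 7 to 55 for E18, from 10570 to 10995 for P7 minus E18, from 0 to 3 for P35, from 10576 to 10825 for P35 minus P7, from 50 to 279 for P70 minus P35, from 7 to 211 for P7, from 8 to 101 for P70. Members called ran from 0 to 1 for E14, from 7 to 8 for E18 minus E14, from 2 to 4 for P7 minus E18, from 0 to 1 for P70 minus P35, and stayed the same in the others. At E14 the member was B2m, without WT replicate 5 (0.82, adjusted p = 0.0465), where 735 genes were called. Between E18 and P7, Tapbp was lost without E18 WT replicate 1, 2 or 5 or P7 WT replicate 2, and H2-D1 was called without E18 WT replicate 3 or 4 or P7 WT replicate 4 or 5, and Tap1 without P7 WT replicate 2. C3 was called between E14 and E18 without E14 WT replicate 1, and between P35 and P70 without P35 WT replicate 4 or P70 WT replicate 5. Values that changed sign, none of them called, ran as follows. For genotype with age as a covariate they were B2m from -0.0674 to 0.0692, Tap1 from -0.00916 to 0.0578, C4b from -0.0266 to 0.0597. At E14 the values were Tap2 from -0.15 to 0.40, C4b from -0.12 to 1.60, C3 from -0.00443 to 0.46. At E18 the values were C4b from -0.28 to 0.26, C3 from -0.00185 to 0.26. At P35 the values were B2m from -0.0799 to 0.00460, H2-D1 from -0.0221 to 0.0725, Tap2 from -0.0969 to 0.0243. For P35 minus P7 they were Tap1 from -0.0559 to 0.22, Tapbp from -0.0294 to 0.0209. At P7 the values were B2m from -0.0981 to 0.00927, H2-K1 from -0.16 to 0.0463, H2-D1 from -0.00716 to 0.0773, Tap1 from -0.0483 to 0.23, C4b from -0.0545 to 0.21. At P70 the values were H2-K1 from -0.13 to 0.12, Tap1 from -0.14 to 0.0788, Tap2 from -0.0665 to 0.0350, C4b from -0.0656 to 0.13, C3 from -0.17 to 0.29.

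For pairs of genes, 12 of 28 had an adjusted p under 0.05 in the 25 WT libraries, 16 in the 25 Het libraries, 14 in embryonic libraries, 17 in postnatal libraries and 20 to 22 in the remaining settings. The embryonic and postnatal settings and the 1 without E14 Het replicate 2 were chosen after seeing the data. Correlations that reversed were all with C3. With H2-K1 it was 0.00620 with library size only and 0.0436 in WT libraries. With B2m it was -0.0921 in WT, -0.11 in postnatal libraries and -0.11 without E14 Het replicate 2. With Tap2 it was -0.0288 in WT and -0.00250 without that library, and with Tap1 -0.0880 in Het and -0.0338 in embryonic libraries.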
